A study of Homo sapiens with 9 samples.

Results

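The nectins NECTIN1 to NECTIN4, the poliovirus receptor PVR and afadin (*AFDN*) form a small system of cell adhesion molecules. Their mRNA was followed here in LNCaP, an androgen-responsive human prostate cancer cell line, with and without the long noncoding RNA gene *EPCART*. The set held 6 of the 19984 protein-coding genes of the deposited table, taken by symbol, and its members were chosen by the normalized count of *NECTIN3*, which was much higher in both deletion clones than in WT. The values of *NECTIN3* against WT are therefore described and not tested, while the other 5 genes were tested against WT and all 6 were tested between the deletion clones. The 6 genes were present in all 9 libraries and all 6 passed the filter on low values.

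The question was how the transcriptome differs when *EPCART*, which is associated with prostate cancer, is removed. Clones del-4 and del-56 carry a CRISPR-Cas9 deletion of the *EPCART* promoter with its first and second exons, and the WT clone of the same line kept the gene. Each clone gave 3 replicate cultures and 3 libraries, all grown for 48 hours in the same medium. WT is a single clone, and both deletion clones were set against it. A difference that belongs to a clone and a difference that belongs to the deletion therefore cannot be told apart. The p-values measure the spread between cultures of these clones. *EPCART* itself, which is not protein coding, was not analysed here, so the deletion was taken from the labels.

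Nectins are immunoglobulin-like membrane proteins that hold neighbouring cells together without calcium. They bind a like molecule or another nectin on the next cell, and the pair of NECTIN1 with NECTIN3 binds more strongly than either molecule does with itself. Inside the cell their tails bind the PDZ domain of afadin, an actin-binding scaffold, and this brings cadherins and catenins to forming adherens junctions. PVR, also known as CD155, is a nectin-like protein that does not bind afadin but can bind NECTIN3 on another cell. PVR and NECTIN2 are also ligands of receptors on T cells and natural killer cells, with CD226 as an activating receptor and TIGIT as an inhibitory one. NECTIN4 is the target of an antibody-drug conjugate used in urothelial cancer.

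Values are normalized counts, that is, read counts on a gene divided by the size factor of the library. The libraries held 91074556 to 118877134 reads on genes, so that 1 read was worth 0.943 to 1.21 normalized counts. No pair of replicates agreed within sampling noise over genes, with chi-square per degree of freedom from 6.14 to 22.9. The cells carried luminal prostate markers in every library, among them *KLK3* and *KRT8*, while the basal markers *KRT5* and *TP63* did not exceed 9.66 normalized counts and *KRT14* ran from 19.4 to 64.3. The lymphocyte marker *CD3E* was at 0 in all 9 libraries and *PTPRC* did not exceed 3.87. The endothelial marker *CDH5* was at 0 and *PECAM1* did not exceed 6.03, whereas *VWF* averaged 596 in WT, 304 in the del-4 clone and 641 in del-56, a log2 fold change of -0.97 for del-4 (adjusted p = 1.5e-06, limma). The fibroblast markers *COL1A2* and *DCN* did not exceed 3.87 and 9.70, whereas *COL1A1* averaged 991 in WT, 1253 in the del-4 clone and 1258 in del-56, log2 fold changes of 0.33 and 0.34 (adjusted p = 0.0037 and 0.0018, limma). The part of these markers in the results was not tested. A change in the number of cells that express a gene and a change in RNA per cell cannot be told apart in these bulk libraries.

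The genes lie on 5 chromosomes (GENCODE version 44, GRCh38). *NECTIN3* (ENSG00000177707.11) is on the plus strand of chromosome 3, at chr3:111070071-111275563, and *NECTIN1* (ENSG00000110400.11) on the minus strand at chr11:119623408-119729200. *NECTIN2* (ENSG00000130202.10) at chr19:44846175-44889223 and *PVR* (ENSG00000073008.15) at chr19:44643798-44666162 are both on the plus strand of chromosome 19. *NECTIN4* (ENSG00000143217.9) is on the minus strand at chr1:161070998-161089558, and *AFDN* (ENSG00000130396.21) on the plus strand at chr6:167826893-167972023. *PVR* shares 3885 bases of its span with *CEACAM19* on the same strand, and antisense genes overlap every member except *AFDN*, including 1483 bases of *NECTIN3* with *NECTIN3-AS1*. The libraries were strand-specific, but whether strand was used in counting is not given in the sources used here, so reads of such pairs cannot be told apart.

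Promoter sequence is shown for the member that was chosen for its rise, *NECTIN3*, and for the member with the smallest mean absolute log2 fold change from WT over the clones, *NECTIN4*. Each line holds the 250 bases before the RefSeq transcription start (GRCh38.p14), 5′ to 3′ on the strand of the gene, and capitals mark the GC box GGGCGG or its reverse complement CCGCCC, the letters bound by SP1-type factors.
NECTIN3 (chr3:111071566-111071815, plus strand): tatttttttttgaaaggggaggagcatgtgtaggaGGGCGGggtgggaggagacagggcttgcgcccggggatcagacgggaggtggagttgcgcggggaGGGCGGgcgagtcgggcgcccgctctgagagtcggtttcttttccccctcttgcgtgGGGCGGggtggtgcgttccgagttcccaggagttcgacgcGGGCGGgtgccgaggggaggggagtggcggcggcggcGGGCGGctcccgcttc
NECTIN4 (chr1:161089559-161089808, minus strand): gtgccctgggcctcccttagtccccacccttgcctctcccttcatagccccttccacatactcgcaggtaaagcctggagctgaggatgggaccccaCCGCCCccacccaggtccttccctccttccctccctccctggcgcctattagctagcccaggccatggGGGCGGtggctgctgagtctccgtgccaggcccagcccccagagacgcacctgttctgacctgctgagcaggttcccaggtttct

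The *NECTIN3* stretch held 5 GC boxes and 27 CpG dinucleotides, and the *NECTIN4* stretch held 2 GC boxes and 6 CpG dinucleotides. The *NECTIN3* stretch lies inside the GENCODE span of the gene, which begins further upstream, but in no annotated exon, and the *NECTIN4* stretch overlaps no annotated gene. Of the 6 genes, 5 were matched in the RefSeq promoter table, *NECTIN1* not being among them. Over windows of 300 bases, from 250 before to 50 after the start, the number of CpG dinucleotides was 49 for *AFDN*, 36 for *NECTIN3*, 27 for *PVR*, 26 for *NECTIN2* and 10 for *NECTIN4*, against a median of 14 over 35116 promoters. GC boxes, searched on both strands, numbered 5 for *NECTIN3*, 3 for *NECTIN2*, 2 for *NECTIN4*, 1 for *AFDN* and 0 for *PVR*, and 45.0% of all promoters held at least 1. Neither the TATA box letters TATAAA (in 11.5% of all promoters) nor the E-box letters CACGTG (in 7.26%) occurred in any of the 5 windows on either strand, and no match says only that these letters are not in this window. No 2 of these motifs shared a match.

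*NECTIN3*, whose product pairs with NECTIN1 and with PVR across cell contacts, was the lowest of the 6 genes in WT and rose out of that range in both clones. Its normalized counts were 133, 90.7 and 98.0 in the WT cultures, 976, 967 and 939 in the del-4 clone and 1681, 1587 and 1443 in del-56. The 3 groups did not overlap, and the lowest deletion library was far above the highest WT library. The mean was 107 ± 22.8 (SD, n = 3) in WT, 961 ± 19.1 (SD, n = 3) in del-4 and 1571 ± 120.0 (SD, n = 3) in del-56. On the scale of log2 of the normalized count plus 1, the difference from WT was 3.17 (SE 0.15) in del-4 and 3.88 (SE 0.14) in del-56, or 9.0-fold and 14.7-fold. Its absolute log2 fold change was larger than that of 99.3% of all genes tested in the del-4 fit and 99.6% in the del-56 fit. These values chose the set, so they carry no test. The distance from WT and the rank among all genes follow from that choice and are no result. Both clones were set against the same WT libraries. With 1 library left out, the log2 difference of del-4 was 3.06 to 3.33 and that of del-56 was 3.77 to 4.04.

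**Figure D1:**
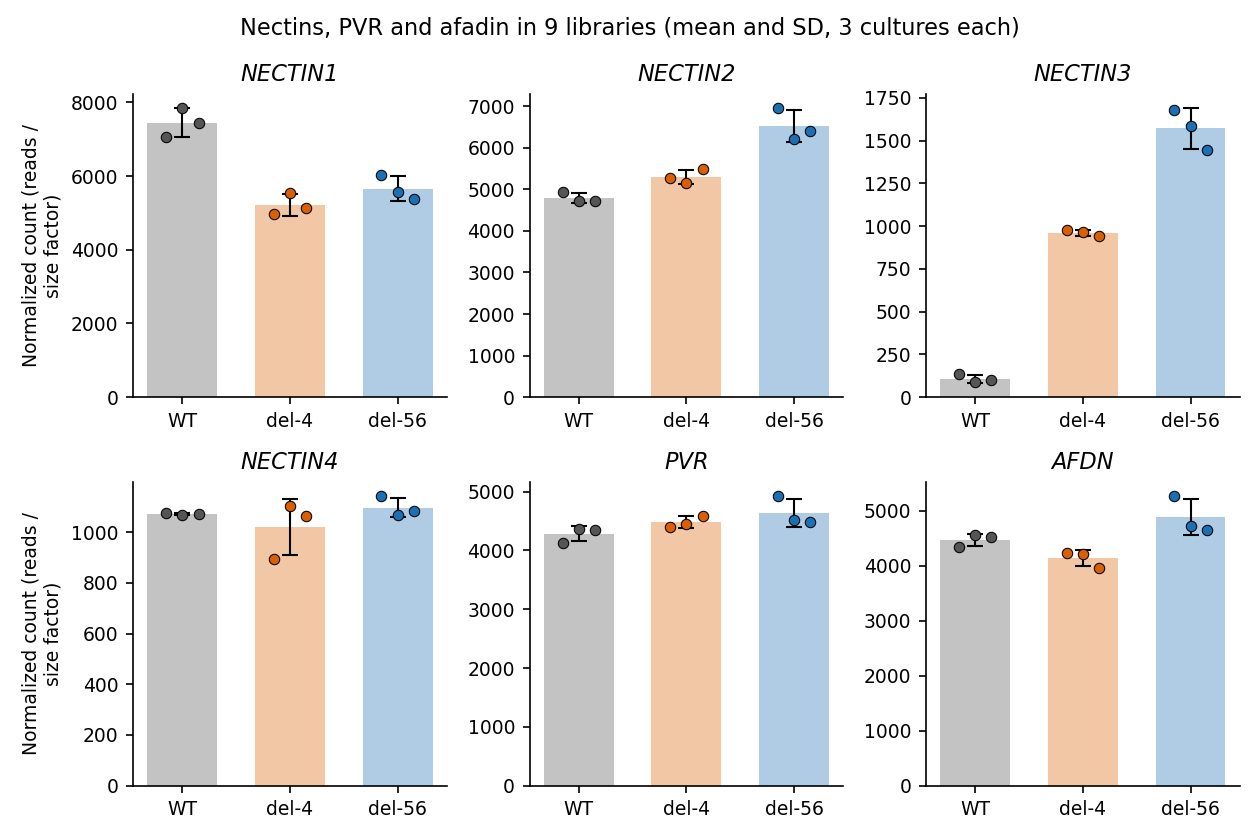
Normalized counts (vertical axes, reads divided by the size factor) of the 6 genes in WT, del-4 and del-56. Bars are means, whiskers the SD over 3 cultures and points the cultures; *NECTIN3* lies between 90.7 and 133 in WT and between 939 and 1681 in the deletion clones, and *NECTIN1* is lower in all 6 deletion cultures than in any WT culture.

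Between the clones, a contrast that did not choose the set, *NECTIN3* was also unequal. It was 0.71 higher on the log2 scale in del-56 than in del-4 (SE 0.075, 1.63-fold, adjusted p = 2.1e-06, limma with Benjamini-Hochberg adjustment over all genes tested), and it was higher in 3 of 3 del-56 cultures without overlap, which held for 17.1% of all tested genes. In this contrast, 3 of the 6 members passed an adjusted p under 0.05, all higher in del-56, where 19.9% of all tested genes were called, 9.0% as higher and 10.9% as lower. Rescaling the libraries to the same total moved the share of higher calls over all genes from 45.3% to 63.3% in this contrast, and all 3 members still passed.

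*NECTIN1*, whose product pairs with NECTIN3 and is an entry receptor of herpes simplex virus, was lower in both deletion clones. Its normalized counts were 7054, 7847 and 7439 in WT, 4957, 5539 and 5139.7 in the del-4 clone and 6027, 5569 and 5372 in del-56. All 6 deletion cultures were below all WT cultures, as held for 24.8% of all tested genes in each clone, and the clones overlapped each other. The log2 fold change was -0.51 in del-4 (SE 0.048, 0.700-fold, adjusted p = 1.2e-07, limma) and -0.40 in del-56 (SE 0.050, 0.759-fold, adjusted p = 1.2e-05, limma). Between the clones the difference was 0.12, with a 95% interval from 0.0093 to 0.23 and an adjusted p of 0.12 (limma).

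*NECTIN2*, which pairs with itself and with NECTIN3 and is the ligand of the inhibitory receptor PVRIG, was higher in both clones. It was measured at 4939, 4727 and 4713 normalized counts in WT, at 5263, 5151 and 5480.2 in the del-4 clone and at 6958, 6199 and 6404 in del-56. The 3 groups did not overlap, with WT lowest and del-56 highest. Of all tested genes, 24.8% lay above WT without overlap in del-4 and 24.0% in del-56, and 17.1% lay higher in del-56 than in del-4. The log2 fold change was 0.14 in del-4 (SE 0.042, 1.11-fold, adjusted p = 0.010, limma) and 0.44 in del-56 (SE 0.047, 1.36-fold, adjusted p = 2.1e-06, limma). The call in del-4 was lost without del-4 replicate 3 (adjusted p = 0.066), without WT replicate 3 (adjusted p = 0.051) and when libraries were rescaled to the same total (log2 fold change 0.075, adjusted p = 0.17, limma in each). The clones differed by 0.30 (SE 0.047, adjusted p = 1.8e-04, limma), higher in 3 of 3 del-56 cultures.

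*NECTIN4* did not pass in any contrast. It stood at 1075, 1067 and 1071 normalized counts in WT, at 893, 1103 and 1065 in the del-4 clone and at 1141, 1066 and 1085 in del-56, and all groups overlapped. The WT cultures lay close together, and the first del-4 culture was the lowest of all 9. The log2 fold change was -0.076 in del-4, with a 95% interval from -0.25 to 0.10 (adjusted p = 0.51, limma), and 0.035 in del-56, with an interval from -0.12 to 0.19 (adjusted p = 0.74, limma). A difference of the size of that of *NECTIN1* lies outside both intervals.

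*PVR*, a ligand of CD226, TIGIT and CD96, showed small differences that did not pass. Its normalized counts were 4134, 4367 and 4343 in WT, 4403, 4447 and 4590.3 in the del-4 clone and 4918, 4517 and 4491 in del-56. Every deletion culture was above every WT culture, a pattern shown by 24.8% of all tested genes for del-4 and by 24.0% for del-56. The log2 fold change was 0.066 in del-4 (SE 0.043, 95% interval -0.024 to 0.16, adjusted p = 0.24, limma) and 0.12 in del-56 (SE 0.048, 95% interval 0.014 to 0.22, adjusted p = 0.067, limma). In 1 fit of all 9 libraries the del-56 difference passed with an adjusted p of 0.049 (limma). Under rescaling to the same total the del-4 difference was -0.0036.

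*AFDN*, the scaffold that ties all 4 nectins to actin, moved apart in the 2 clones. It was measured at 4347, 4549.8 and 4523 normalized counts in WT, at 4237, 4217 and 3967 in the del-4 clone and at 5258, 4724 and 4656 in del-56. All del-4 cultures were below WT, as were those of 24.8% of all tested genes, and all del-56 cultures were above it, as were those of 24.0%. Neither difference from WT passed, at -0.11 in del-4 (SE 0.044, adjusted p = 0.051, limma) and 0.12 in del-56 (SE 0.050, adjusted p = 0.063, limma). The difference between the clones passed, at 0.24 (SE 0.052, 1.18-fold, adjusted p = 0.0031, limma), higher in 3 of 3 del-56 cultures.

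**Figure D2:**
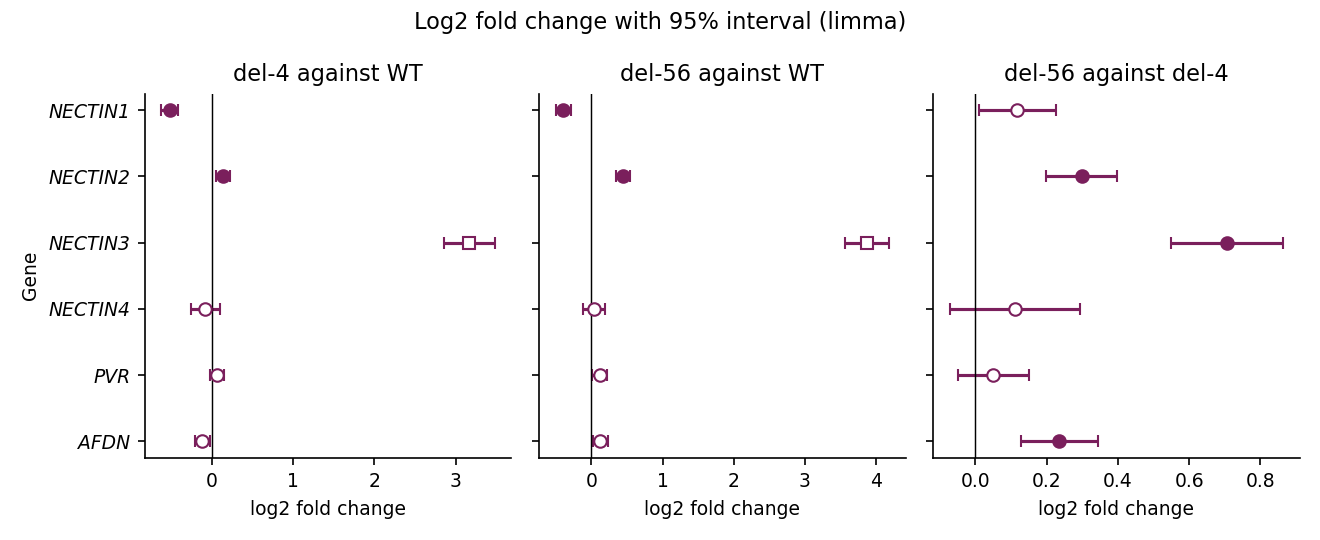
Log2 fold change (horizontal axes, on log2 of the normalized count plus 1; each panel has its own scale) with its 95% interval from limma for the 6 genes in the 3 contrasts. Filled circles passed an adjusted p under 0.05, open circles did not, and the open squares of *NECTIN3* at 3.17 and 3.88 mark values without a test.

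Against WT, then, 2 of the 5 tested members passed in each clone, *NECTIN2* as higher and *NECTIN1* as lower. Over all tested genes 40.7% were called for del-4 (20.5% higher and 20.2% lower) and 39.7% for del-56 (19.2% higher and 20.5% lower), so the share of members called was near that of all genes. The 5 members had median absolute log2 fold changes of 0.11 (del-4) and 0.12 (del-56), below the medians over all tested genes of 0.19 and 0.19. Rescaling to the same total changed the share of calls that were higher from 50.3% to 32.4% in del-4.

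Levels of different genes were compared per kb of merged exons. The length that the reads of these libraries scale with is not given in the sources used here, and the order depends on it. Per kb of exons the order in every group was *NECTIN2*, *NECTIN1*, *PVR*, *AFDN*, *NECTIN4* and *NECTIN3*. In WT the normalized counts per kb were 1281 ± 33.8 (SD, n = 3) for *NECTIN2*, 953 ± 50.7 for *NECTIN1*, 411 ± 12.3 for *PVR*, 325 ± 8.02 for *AFDN*, 309.6 ± 1.17 for *NECTIN4* and 13.9 ± 2.95 for *NECTIN3*. Per kb of the whole gene span the WT order was instead *PVR* at 191, *NECTIN2* at 111, *NECTIN1* at 70.4, *NECTIN4* at 57.7, *AFDN* at 30.8 and *NECTIN3* at 0.523, and *NECTIN4* stood above *NECTIN1* in both deletion clones. *NECTIN3* was last by either length. Neighbours in the order per kb of exons did not overlap in any group, except *AFDN* and *NECTIN4* in del-4, where they stood at 301 ± 11.0 and 295 ± 32.3. *NECTIN3* stood at 124 ± 2.48 per kb of exons in the del-4 cultures and 204 ± 15.5 in those of del-56. It exceeded 26.7% of the genes with at least 1 read in WT, 40.6% of them in the del-4 libraries and 45.9% in those of del-56.

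The make-up of the nectin mRNA pool therefore differed between WT and the clones. *NECTIN3* made up 0.544% ± 0.118 (SD, n = 3) of the summed level per kb of the 4 nectins in WT, 4.98% ± 0.223 in the del-4 clone and 6.81% ± 0.345 in del-56. The share of *NECTIN1* was 37.2% ± 1.73 in WT, 26.6% ± 1.20 in the del-4 clone and 24.2% ± 0.506 in del-56, and no deletion library reached the WT range. *NECTIN2* held 50.1% ± 1.5 in WT, 56.6% ± 1.91 in the del-4 clone and 58.3% ± 0.797 in del-56. *NECTIN4* held 12.1% ± 0.165 in WT, 11.8% ± 1.01 in the del-4 clone and 10.6% ± 0.227 in del-56. These shares include *NECTIN3*, which chose the set, and are a description. Their size depends on the length used. Per kb of gene span, an alternative chosen after seeing the data, *NECTIN3* held 0.218% in WT, 2.02% in the del-4 clone and 2.81% in del-56, and *NECTIN1* held 29.3%, 21.2% and 19.7%. *NECTIN2* then held 46.4%, 53.1% and 55.7% and *NECTIN4* 24.0%, 23.7% and 21.8%.

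The summed level of the 4 nectins was 2557 ± 27.5 per kb (SD, n = 3) in WT, 2502 ± 67.4 in the del-4 clone and 2987 ± 166 in del-56. The WT range overlapped that of del-4 and lay below that of del-56. Per kb of gene span the sum was 240 in WT, 232 in the del-4 clone and 272 in del-56, and the WT range, 238.0 to 241.9, then lay just above that of del-4, 222.0 to 237.8. Per kb of exons, the ratio of *NECTIN1* to *NECTIN3* was 52.2, 85.4 and 74.9 in the WT libraries, 5.02, 5.65 and 5.40 in the del-4 clone and 3.54, 3.46 and 3.68 in del-56. The ratio of *NECTIN2* to *NECTIN1* was 1.46, 1.26 and 1.32 in WT, 2.22, 1.94 and 2.23 in the del-4 clone and 2.41, 2.33 and 2.49 in del-56, with no overlap between WT and the clones. Per kb of gene span the first ratio was 103 to 168 in WT, 9.87 to 11.1 in the del-4 clone and 6.82 to 7.23 in del-56, and the second 1.48 to 1.72, 2.29 to 2.62 and 2.74 to 2.93.

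**Figure D3:**
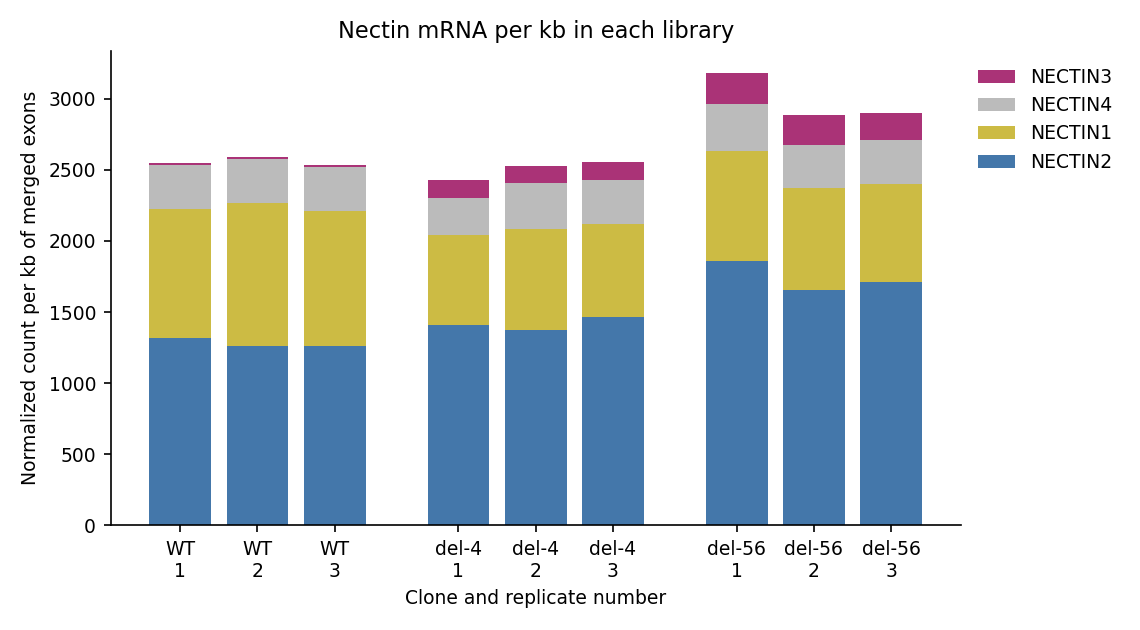
Summed level of the 4 nectins in each library (vertical axis, normalized count per kb of merged exons), stacked by gene, for the 3 cultures of WT, del-4 and del-56 (horizontal axis). *NECTIN3* is a thin band of 0.544% on average in WT and widens to 4.98% in the del-4 clone and 6.81% in del-56, while the *NECTIN1* band shrinks.

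Genes that work with nectins were taken from 5 lists, 38 genes in all, of which 37 were tested. In del-4, 9 were higher than in WT and 10 lower, and in del-56, 11 were higher and 8 lower, that is 19 of 37 called in each clone beside the 40.7% and 39.7% of all genes given above. The 37 genes had a median log2 fold change of -0.058 (del-4) and 0.030 (del-56), against -0.0028 and -0.0011 over all tested genes. Between the clones, 4 of 37 passed, beside 19.9% of all genes.

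The receptors that nectins and PVR engage on lymphocytes were low in these cells, and *PVRIG* was the most abundant of the 4 at 61.8 to 106 normalized counts. *CD226*, the activating receptor, was at 13.5, 3.86 and 11.3 in WT, 1.92, 5.98 and 0 in the del-4 clone and 0, 4.02 and 0 in del-56, where 3 reads were worth 2.83 to 3.64. Its difference in del-56 passed with an adjusted p of 0.039 (limma), but the groups overlapped and edgeR's quasi-likelihood test gave 0.10 and DESeq2 0.087. That call was also lost without del-56 replicate 1 or 3 or WT replicate 1 or 3 (adjusted p 0.093 to 0.15, limma) and with the replicate number as a block (adjusted p = 0.070, limma). *CD96* was at 34.8, 56 and 41.5 in WT and at 15.4, 27.9 and 22.1 in del-4, a log2 fold change of -0.996 (SE 0.378, adjusted p = 0.043, limma), and at 27.7, 58.2 and 31.5 in del-56, where it did not pass. The del-4 call was lost without del-4 replicate 1 or 3 and without WT replicate 2 or 3 (adjusted p 0.076 to 0.17), without a filter (0.0504), with quantile normalization (0.081), by DESeq2 (0.061) and by edgeR (0.063). *TIGIT* and *PVRIG* did not pass in any contrast, *TIGIT* with 0 to 17.0 normalized counts.

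Of the 3 nectin-like CADM genes tested, only *CADM1* passed, and it was lower in both clones. CADM1 is an adhesion molecule and tumour suppressor that binds NECTIN3 as well as itself. It was at 599, 481 and 547 normalized counts in WT, 209, 171 and 205 in the del-4 clone and 141, 167 and 194 in del-56. All deletion cultures were below all WT cultures, as held for 24.8% of all tested genes in each clone. The log2 fold change was -1.47 in del-4 (SE 0.14, adjusted p = 1.4e-07, limma) and -1.70 in del-56 (SE 0.15, adjusted p = 2.9e-07, limma). *CADM4*, the most abundant of the list at 1734 to 2083, and *CADM2*, at 351 to 429, did not pass in any contrast, and *CADM3* was at 0 in 8 libraries and at 2 reads in the other.

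Partners of afadin were called in 6 of 10 cases in del-4 (3 higher and 3 lower) and in 5 of 10 in del-56 (4 higher and 1 lower). *RAP1A*, a small GTPase that binds afadin, was higher in both clones, by 0.38 on the log2 scale in each (del-4 and del-56, adjusted p = 1.3e-06 and 4.9e-06, limma). *RAP1B* was higher by 0.13 (adjusted p = 0.026) and 0.21 (adjusted p = 9.4e-04, limma), although its del-4 and WT cultures overlapped and the del-4 call was lost without del-4 replicate 1 or 3 or WT replicate 2 or 3 (adjusted p 0.091 to 0.13) and with the same total (log2 fold change 0.060, adjusted p = 0.28). *PTPRM*, a receptor tyrosine phosphatase, was higher by 0.76 (adjusted p = 4.0e-09) and 0.31 (adjusted p = 9.6e-04, limma), and *LMO7*, which links afadin to the cadherin complex, was lower by -0.86 in each clone (adjusted p = 1.1e-04 and 1.5e-04, limma).

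Among cadherins and catenins, 2 of 9 genes were higher and 2 lower in each clone, where 40.7% (del-4) and 39.7% (del-56) of all tested genes were called. *CDH1*, which encodes E-cadherin, was lower in both, with a mean of 48575 ± 1167 normalized counts in WT, 39938 ± 1585 in the del-4 clone and 39820.0 ± 1966 in del-56 (SD, n = 3 each). Its log2 fold change was -0.28 and -0.29 (adjusted p = 9.4e-06 and 4.8e-05, limma). *CTNNB1*, the gene of β-catenin, was higher by 0.25 and 0.21 (adjusted p = 1.4e-05 and 1.7e-04, limma) and *JUP*, the gene of plakoglobin, by 0.11 and 0.14 (adjusted p = 0.032 and 0.016, limma). The call of *JUP* was lost without del-4 replicate 2 or 3 or WT replicate 1 or 3 in del-4 (adjusted p 0.080 to 0.13) and without WT replicate 1 in del-56 (adjusted p = 0.074). It was also lost in del-4 with the same total (log2 fold change 0.044, adjusted p = 0.45) and quantile normalization (0.074, adjusted p = 0.17), and in del-56 with the same total (adjusted p = 0.062) and the replicate number as a block (adjusted p = 0.055, limma). *CTNNA1*, whose product α-catenin joins the complex to actin, and *CTNND1*, the gene of p120-catenin, did not pass, with absolute log2 fold changes of at most 0.030.

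*CDH3*, the gene of P-cadherin, had the largest difference of the 37 genes. It was at 114, 143 and 117 normalized counts in WT, 11.5, 11.0 and 6.03 in the del-4 clone and 0, 6.02 and 0 in del-56. The log2 fold change was -3.62 in del-4 (SE 0.36, adjusted p = 2.4e-07, limma) and -6.03 in del-56 (SE 0.66, adjusted p = 2.6e-06, limma), and the second value depends on the pseudocount, from -4.31 with 5 to -6.72 with 0.5.

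Of 11 genes of nectin signalling, 4 were higher and 3 lower in del-4, where 40.7% of all tested genes were called. In del-56, 5 were higher and 3 lower, beside 39.7% of all tested genes. *RAC1*, named after its values were seen, was higher in del-56 (0.12, adjusted p = 0.018, limma) but not called in del-4 (0.053, adjusted p = 0.25). *CDC42*, a GTPase that remodels actin at new contacts, was higher by 0.48 and 0.51 (adjusted p = 5.2e-09 and 1.7e-07, limma), and the kinase gene *SRC* by 0.40 and 0.46 (adjusted p = 1.4e-06 and 2.4e-07, limma). *ITGAV*, the integrin αv gene, was lower by -0.68 and -0.35 (adjusted p = 7.7e-10 and 3.1e-06, limma), and *IQGAP1*, a scaffold of CDC42 and actin, by -0.17 and -0.32 (adjusted p = 0.0021 and 1.6e-05, limma). Between the clones, *ITGAV* was higher in del-56 by 0.33 (adjusted p = 4.4e-05) and *PTPRM* and *IQGAP1* were lower by -0.45 and -0.15 (adjusted p = 2.8e-05 and 0.0087, limma), the call of *IQGAP1* being lost without del-56 replicate 3 (adjusted p = 0.059) and with the same total (-0.11, adjusted p = 0.051). *TJP1*, the gene of ZO-1, was named after its values were seen as the other of these 4 calls, at 0.26 (adjusted p = 1.6e-04, limma).

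**Figure D4:**
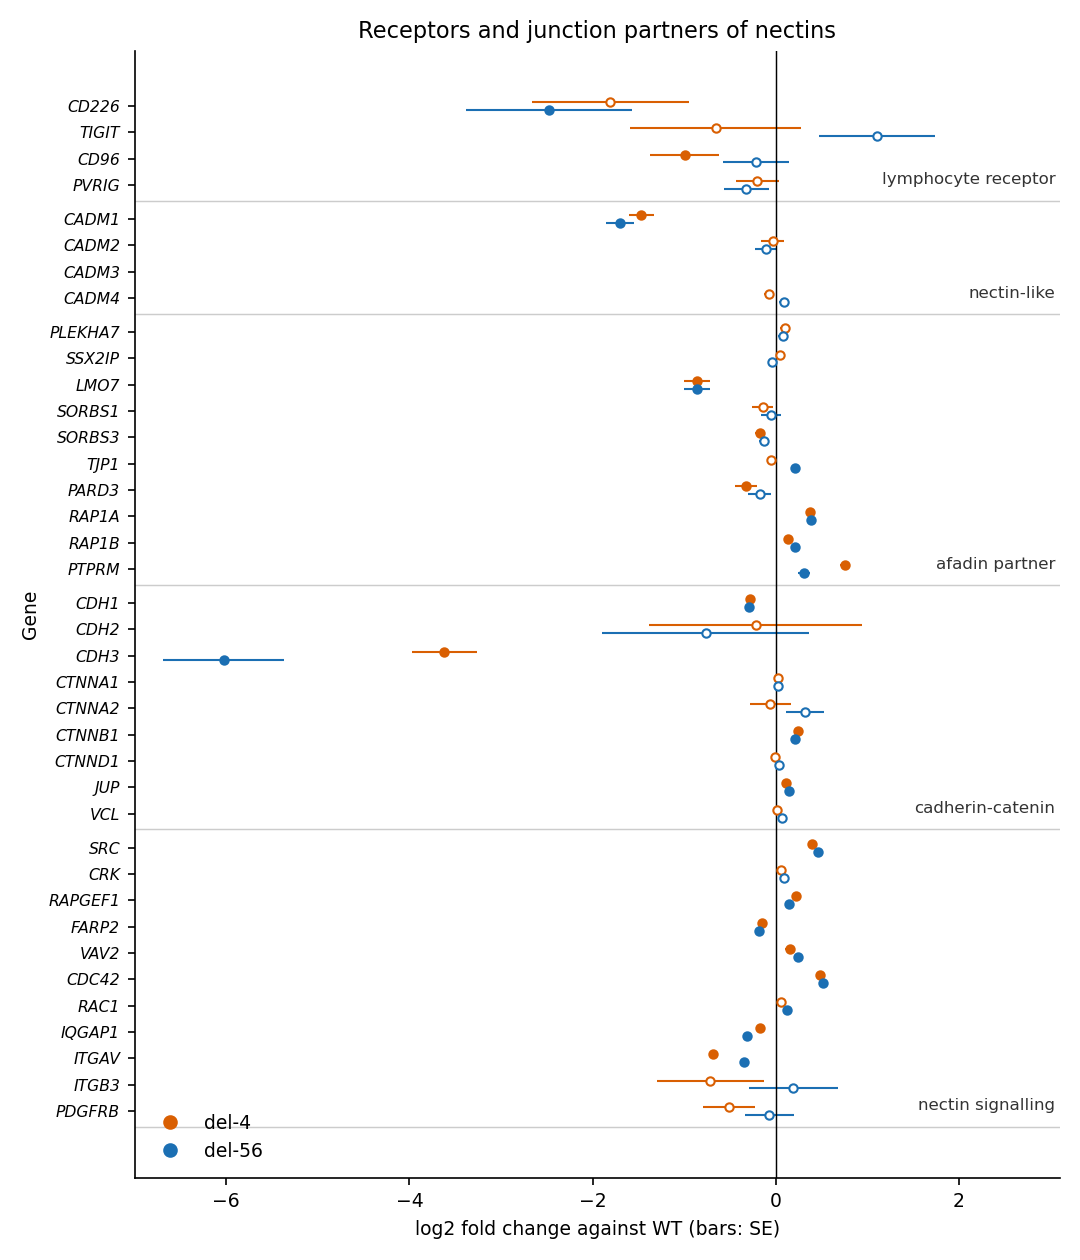
Log2 fold change against WT (horizontal axis, on log2 of the normalized count plus 1) of the 37 tested genes of the 5 partner lists in del-4 and del-56. Bars are the SE, filled points passed an adjusted p under 0.05; *CDH3* and *CADM1* lie to the left in both clones, while *CDC42*, *SRC* and *RAP1A* lie to the right.

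The genes whose profile over the 9 libraries was nearest to that of *NECTIN3* were found by the root mean square distance of log2 values centred on WT, among 15372 other genes with a mean of at least 10. They were *BMP7* (distance 0.28), *C2orf80* (0.50), *ECHDC1* (0.55), *ANKRD29* (0.62) and *SLC6A3* (0.69). *BMP7*, the gene of a secreted bone morphogenetic protein, was at 13.8 ± 5.43 normalized counts in WT, 114 ± 5.40 in the del-4 clone and 165 ± 23.2 in del-56 (SD, n = 3 each). *ECHDC1*, which encodes an enzyme that clears ethylmalonyl-CoA, was at 341 ± 39.2, 2484 ± 173 and 2891 ± 258. *SLC6A3*, the dopamine transporter gene, differed from *NECTIN3* in being higher in del-4, at 394 ± 20, than in del-56, at 207 ± 22.8. The likeness depends on its measure, since ranking by Pearson's r over the same 9 libraries gave 5 other genes with 0 shared. An r over 0.95 was reached by 419 genes, among them *BMP7* at 0.991 and *ANKRD29* at 0.993, so such a profile is not particular to the genes named.

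The genes beside *NECTIN3* on chromosome 3 are given as a description. *NECTIN3* was chosen for its rise against WT, so its place above them was set by that choice and is no result. With gene midpoints within 1 Mb of either end of its span, 8 genes were tested. Their median was -0.32 on the log2 scale for del-4 (1 higher and 3 lower) and 0.19 for del-56 (1 higher and 1 lower). They ran from -1.47 to 1.24 in del-4 and from -0.54 to 0.54 in del-56. *CD96*, the receptor gene above, begins 17155 bases after *NECTIN3* and was the nearest gene tested on that side. On the other side the nearest was *RETNLB*, 2312660 bases before it, at -0.22 (adjusted p = 0.52) and 0.13 (adjusted p = 0.71, limma). The median over all tested genes of chromosome 3 was 0.016 (del-4) and 0.023 (del-56). Around the other members, the medians within 1 Mb ran from -0.13 to 0.045 for del-4 and from -0.21 to 0.064 for del-56.

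**Figure D5:**
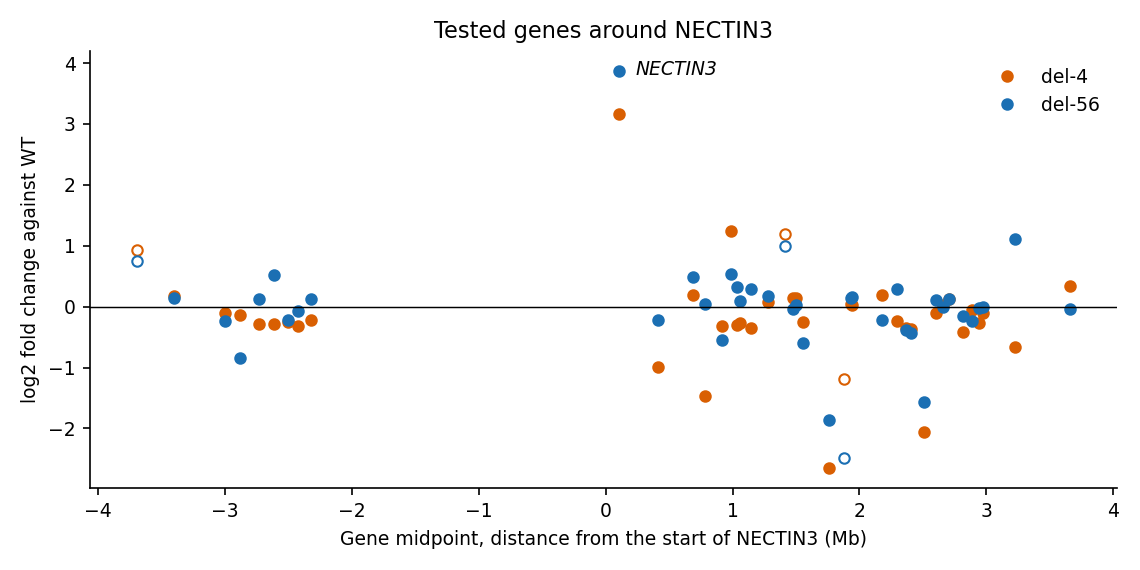
Log2 fold change against WT (vertical axis) of tested genes around *NECTIN3*, by the distance of the gene midpoint from the *NECTIN3* start in Mb (horizontal axis), in del-4 and del-56. Open points are genes with a mean under 10. *NECTIN3*, which was chosen for its rise, stands at 3.17 and 3.88. The 8 tested genes with a midpoint within 1 Mb of either end of its span lie between -1.47 and 1.24.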

How the data were processed

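RNA-seq of polyA RNA was measured in 9 LNCaP libraries, 3 cultures each of del-4, del-56 and WT, grouped by their titles. The authors aligned paired-end reads to GRCh38 with STAR 2.71a and counted them on protein-coding genes of GENCODE with BEDTools 2.27.1 multicov. Whether exons or gene spans and whether strand were used is not given in the sources used here. The values deposited (signal) are gene counts that the authors divided by DESeq2 size factors, called normalized counts here. In each library 100% of values were whole multiples, within 0.01, of 1 step, the value of 1 read. Of values worth 1 to 20 reads, 83.8% were even, so both mates of a pair were mostly counted. Of the 19984 identifiers, 19905 were matched to GENCODE version 44.

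Limma 3.58.1 (R 4.3.3) with a variance trend tested log2 of the normalized count plus 1 in fits of 6 libraries, for genes whose mean in them was 1 or more. Calls required a Benjamini-Hochberg adjusted p under 0.05 over all genes tested. Neighbours were tested genes whose midpoint lay within 1 Mb. The step was tested on simulated data. Figures and summaries used Python 3.11.15. Intervals cover the spread between cultures, and floors of 3 reads counting error only.

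Named were the 6 members, every lymphocyte receptor and CADM gene, *CDH1*, *CTNNA1*, *CTNNB1* and *CTNND1*, up to 4 genes of each other list called in both clones in the same direction, the 5 genes most like *NECTIN3* and its nearest tested genes. The members and the lists were chosen with earlier results of these data known. Alternatives were pseudocounts of 0.5 and 5, no filter, a mean of at least 10, quantile normalization, rescaling to the same total, a block for the replicate number, 1 fit of all 9 libraries, DESeq2 1.42.0 and edgeR 4.0.16 on the recovered reads, a rule of an unadjusted p under 0.05 with a log2 fold change above 1 or below -1, and leaving out each library. *EPCART* was not analysed here.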

Additional observations from a re-analysis of the deposited data

Results flagged for a closer look

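The levels of 3 members differed between the deletion clones by the test of del-56 against del-4 itself, where 19.9% of all tested genes were called. *NECTIN3* was 0.71 higher on the log2 scale in del-56, *NECTIN2* 0.30 higher and *AFDN* 0.24 higher, each in 3 of 3 cultures (adjusted p = 2.1e-06, 1.8e-04 and 0.0031, limma). For *AFDN* the difference from WT had opposite signs in the clones, -0.11 in del-4 and 0.12 in del-56, and neither passed.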

How the results depend on the processing

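The numbers of members called, 2, 2 and 3 of del-4 and del-56 against WT and del-56 against del-4, became 0, 0 and 0 under an unadjusted p under 0.05 with a log2 fold change above 1 or below -1, and the numbers of partner genes, 19, 19 and 4, became 3, 3 and 2. That rule called 1012, 1038 and 747 of all genes, against 7082, 6938 and 3469. On the recovered reads edgeR called 7049, 6943 and 3492, and DESeq2 7019, 6877 and 3629. With 1 library left out, members called ranged from 1 to 3 in del-4 and from 2 to 3 in del-56, and partner genes from 14 to 18 and from 16 to 19. Calls over all genes then ranged from 5814 to 6669 in del-4 and from 5706 to 6941 in del-56. Per kb of gene span in place of exons, WT levels were 70.4 for *NECTIN1*, 111 for *NECTIN2*, 0.523 for *NECTIN3*, 57.7 for *NECTIN4*, 191 for *PVR* and 30.8 for *AFDN*, which puts *PVR* first. Within 500 kb, the neighbour medians of *NECTIN1* were 0.020 in del-4 and 0.13 in del-56, reversed from -0.044 and -0.21, that of *NECTIN4* in del-56 was -0.099 and that of *AFDN* in del-4 -0.042. Of the 5 genes most like *NECTIN3*, 0 were shared under Pearson's r.

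Whether the replicate numbers pair the cultures was not settled. Deviations of del-4 and del-56 libraries correlated at 0.029 to 0.063 for the same number and at -0.051 to -0.0080 for other numbers. For del-4 and WT these ranges were 0.023 to 0.051 and -0.054 to 0.0053. For del-56 and WT they were -0.053 to -4.7e-04 and -0.010 to 0.044. With the replicate number as a block, 2, 2 and 3 members and 19, 16 and 4 partner genes were called. Over all genes the block gave 7038, 6035 and 3393 calls, against 7082, 6938 and 3469 without it.

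*AFDN* in del-4 passed with pseudocount 5 (adjusted p = 0.0496), a mean of at least 10 (0.0469), the same total (0.0047) or without WT replicate 1 (0.0356), and in del-56 with quantile normalization (0.0391) or without del-56 replicate 3 (0.0486, limma). *NECTIN1* between the clones passed with the same total (0.0471) or without del-4 replicate 2 (0.0493). Small uncalled differences changed sign. *NECTIN4* in del-4 ranged from -0.13 to 0.017 with 1 library left out, and *PVR* in del-4 changed to -0.0036 with the same total, and *CADM2* in del-4 to 0.039 by quantile normalization. With 1 library left out, in del-4 *TIGIT* ranged from -1.37 to 0.48, *CADM2* from -0.13 to 0.017, *CTNND1* from -0.032 to 0.0042 and *CTNNA1* from -0.0044 to 0.041, and in del-56 *CTNNA1* from -0.0011 to 0.045. *CTNNA1* changed to -0.044 and -0.052 in del-4 (same total and quantile normalization) and to -3.6e-04 in del-56 (same total).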
